A study of Mus musculus with 12 samples.

Results

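Interleukin-6 (IL-6) family genes were examined in RNA-Seq libraries of the brain cortex, 1 per mouse, from 12 aged E4FAD mice. The genes were chosen by name as parts of this pathway, with no threshold on their values, and they are the receptor chains Il6ra, Il6st, Lifr, Osmr, Cntfr and Il11ra1, the ligands Lif, Cntf and Clcf1, and the transcription factor gene Stat3. All 10 were found among the 50563 genes of the count table, and 9 of them had enough counts for edgeR's filter and entered its test over 15688 genes. Cntf had 0 to 8 counts per mouse and was not tested.

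All mice in both groups carried the genotype APOE4+/+, 5FAD-/+, that is, human APOE4 in place of the mouse gene and 1 dose of the 5xFAD transgenes, which carry familial Alzheimer's disease mutations and are driven in neurons by the Thy1 promoter. The CTRL group was 7 mice given vehicle, 2 aged 12 months and 5 aged 14 months. The DPAn-6 group was 5 mice, 2 aged 12 months and 3 aged 14 months, which received docosapentaenoic acid n-6, an omega-6 fatty acid, by oral gavage at 700 mg/kg daily for 3 weeks. The study's methods give 4 females and 3 males in CTRL and 3 females and 2 males in DPAn-6, and the labels do not say which mouse was which sex. Both groups carried the transgenes, so the comparison bears on treatment within this model and not on the model itself. Total counts ranged from 15339098 to 19500154 in CTRL and from 15208803 to 26520251 in DPAn-6. Markers of cortical neurons, astrocytes, oligodendrocytes and microglia were present in every mouse.

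Cytokines of the IL-6 family act through receptor complexes that share the signal-transducing chain gp130, the product of Il6st. Some ligands first meet their own receptor chain, such as the product of Il6ra for IL-6 or that of Cntfr for ciliary neurotrophic factor. The signalling complex holds gp130 alone or gp130 with the LIF receptor or the oncostatin M receptor. The complex activates Janus kinases and STAT3, a transcription factor that enters the nucleus and induces, among others, the feedback inhibitor Socs3. In the brain, microglia are known for IL-6 receptor expression, and astrocytes for STAT3-dependent reactive changes such as induction of Gfap.

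Il6ra and Il6st had lower levels in DPAn-6 mice, by −0.43 and −0.20 on the log2 scale, and the 95% intervals of the other 7 members tested included 0. In the edgeR quasi-likelihood test 0 of 9 members had an adjusted p below 0.05, where 243 of the 15688 genes (1.55%) did, 179 lower and 64 higher in DPAn-6. DESeq2 put 1 member, Il6ra, past its adjusted threshold, beside 696 genes in all (4.44%), and limma-voom put 0, beside 224 genes (1.43%). With unadjusted p-values from edgeR, 2 of 9 members were below 0.05, beside 14.5% of all genes tested, and both were lower, beside 9.02% of all genes for that direction. In the exact permutation test 2 of 9 were below 0.05, beside 15.8% of all genes. These counts are small and are not read as a difference between the family and other genes. No member had groups that did not overlap, which 3.22% of all genes showed. Of the 9 members 7 were lower and 2 higher, and their median change was −0.08 on the log2 scale, where all genes tested had a median of −0.0047 with 51.3% lower.

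**Figure D1:**
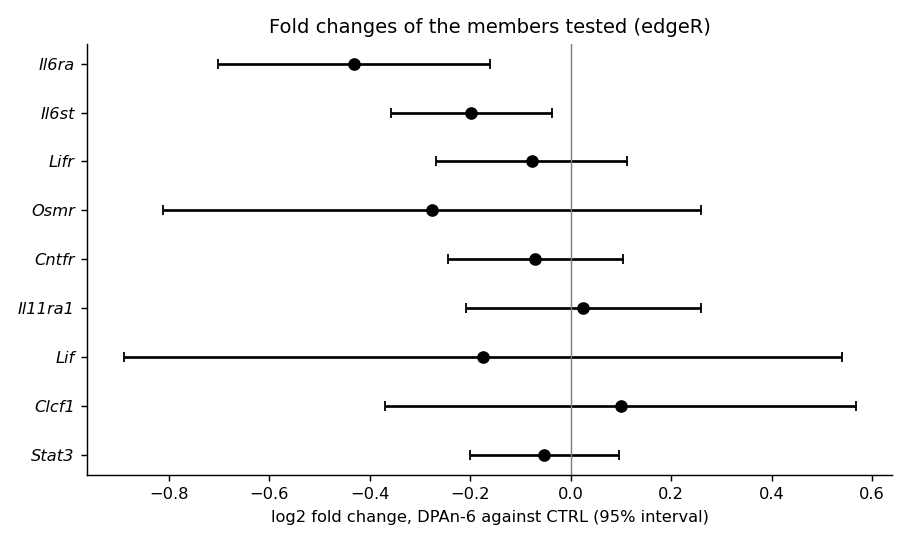
The log2 fold change of DPAn-6 against CTRL mice is plotted for the 9 members tested by edgeR, as points with 95% intervals. The intervals of Il6ra (−0.70 to −0.16) and Il6st (−0.36 to −0.04) lie below 0, and the other 7 include it.

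Before these genes are taken one by one, the libraries that stood apart are described. Ttr, the transthyretin gene of the choroid plexus, had 23880 counts in CTRL 2 and 18344 in CTRL 5. It had 107 to 2558 in the other CTRL mice and 32 to 391 in the DPAn-6 mice. Choroid plexus markers had 4 of 4 tested lower in DPAn-6 and 0 past the adjusted threshold in edgeR. They summed to 12.7 to 1661 CPM in CTRL and 7.51 to 22.9 CPM in DPAn-6. CTRL 3 had the lowest TMM factor, 0.961, beside 0.989 to 1.02 in the others. Microglial markers were lower in DPAn-6 mice, with 7 of 7 below CTRL by fold change and 2 of 7 past the adjusted threshold in edgeR. Their summed level was 684 to 961 CPM in CTRL and 511 to 669 CPM in DPAn-6. Border macrophage markers had 3 of 3 tested lower and 2 past the threshold, and summed to 8.39 to 12.6 CPM in CTRL and 3.62 to 5.03 CPM in DPAn-6. Meningeal fibroblast markers had 5 of 5 below CTRL by fold change and 3 past the threshold, with a median of −0.69 on the log2 scale, and summed to 107 to 217 CPM and 64.0 to 127 CPM. Astrocyte markers, 6 of 6 below CTRL and 0 past the threshold, summed to 6380 to 9956 CPM in CTRL and 5540 to 6410 CPM in DPAn-6. Of these, Slc1a2, which had the most counts, was at −0.42 on the log2 scale in edgeR, while Aqp4 was at −0.07 and Gja1 at −0.08. Mural cell markers, 4 of 4 below CTRL and 0 past the threshold, summed to 182 to 258 CPM in CTRL and 169 to 184 CPM in DPAn-6. Inhibitory neuron markers, 6 of 6 above CTRL and 0 past it, summed to 601 to 739 CPM and 752 to 883 CPM, and oligodendrocyte markers, 5 of 6 above and 0 past it, to 5000 to 6603 CPM and 5877 to 6698 CPM. No marker of these lists was at 0 in all mice. In whole cortex, fewer cells of a type and less RNA per cell cannot be told apart.

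Il6ra (ENSMUSG00000027947; GRCm38 chromosome 3, 89864059 to 89913196, minus strand) encodes the chain that binds IL-6. It had 224 to 280 counts in CTRL and 145 to 253 in DPAn-6, and 2.8% of its exonic bases lie opposite another gene, Gm42809, on the other strand. Its level in CTRL ranged from 3.64 to 4.17 log2 CPM with a median of 3.81. In the DPAn-6 mice 1 to 5 it was 3.65, 3.78, 3.30, 3.26 and 3.26 log2 CPM. DPAn-6 3, 4 and 5 lay under the whole CTRL range, and DPAn-6 1 and 2 lay inside it but under its mean. The means were 3.86 ± 0.19 log2 CPM (SD, n = 7) and 3.45 ± 0.25 (SD, n = 5), or 14.61 and 11.02 CPM. In edgeR this was a log2 fold change of −0.43 (standard error 0.13, 95% interval −0.70 to −0.16), a fitted change of −25.9%. The two-sided exact permutation test gave p = 0.0101, where 0.00126 is the smallest it can give for 7 and 5 mice, and edgeR gave p = 0.0040 before and 0.109 after adjustment. By unadjusted p, Il6ra stood at place 572 of the 15688 genes.

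**Figure D2:**
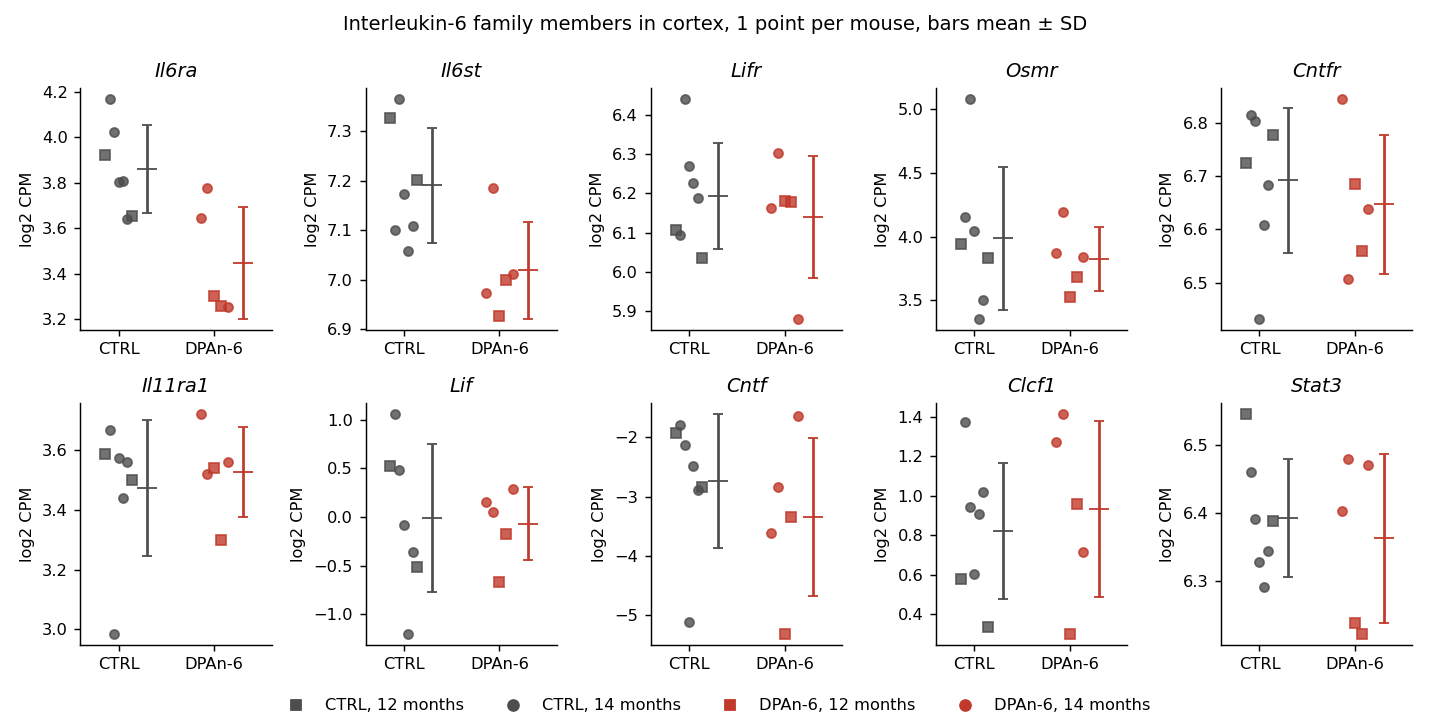
Log2 CPM of the 10 members is plotted for each mouse, with CTRL in grey and DPAn-6 in red, squares for mice aged 12 months and circles for mice aged 14 months, and bars for mean ± SD of 7 CTRL and 5 DPAn-6 mice. Each panel has its own axis range, which does not start at 0. Il6ra lies at 3.26 to 3.78 in DPAn-6 and 3.64 to 4.17 in CTRL, and the groups overlap in each panel.

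Il6ra had a lower mean in treated mice at both ages. At 12 months the 2 CTRL mice had 3.66 and 3.92 log2 CPM and the 2 DPAn-6 mice 3.30 and 3.26. At 14 months CTRL ranged from 3.64 to 4.17 and DPAn-6 from 3.26 to 3.78, and these groups overlapped. Fitted within an age, the log2 fold change was −0.52 at 12 months (edgeR adjusted p = 0.0640) and −0.35 at 14 months (edgeR adjusted p = 0.575). The difference between the ages, tested as an interaction, was not past the threshold (edgeR adjusted p = 0.919). With the log2 CPM of Ttr as a covariate the Il6ra change was −0.30 (edgeR adjusted p = 0.917), and its p was then no longer below 0.05 before adjustment. Ttr itself was lower in DPAn-6 mice, so this fit cannot tell the covariate and treatment apart. Without CTRL 2 and CTRL 5, the mice high in Ttr, the Il6ra change was −0.38 (edgeR adjusted p = 0.267).

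Il6st (ENSMUSG00000021756; GRCm38 chromosome 13, 112464070 to 112510086, plus strand) encodes gp130, the chain shared by the family. It had 2143 to 2743 counts in CTRL and 1945 to 3421 in DPAn-6. Its level in CTRL ranged from 7.06 to 7.36 log2 CPM with a median of 7.17. In DPAn-6 mice 1 to 5 it was 6.97, 7.19, 6.93, 6.999 and 7.01 log2 CPM. DPAn-6 2 lay inside the CTRL range, and the other 4 treated mice lay below every CTRL mouse. The means were 7.19 ± 0.12 (SD, n = 7) and 7.02 ± 0.10 log2 CPM (SD, n = 5). Their log2 fold change in edgeR was −0.20 (standard error 0.07, 95% interval −0.36 to −0.04), a fitted change of −12.8%. The exact permutation test gave p = 0.0265, and edgeR gave p = 0.0188 before and 0.227 after adjustment.

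The Il6st difference was −0.31 among 12-month mice, 2 against 2 (edgeR adjusted p = 0.0494), a fit in which 709 genes passed the adjusted threshold. Among 14-month mice it was −0.13 (edgeR adjusted p = 0.757). The interaction of treatment and age was not past the threshold (edgeR adjusted p = 0.905). At 12 months CTRL had 7.20 and 7.33 log2 CPM and DPAn-6 had 6.93 and 6.999. At 14 months CTRL ranged from 7.06 to 7.36 and DPAn-6 from 6.97 to 7.19. Without DPAn-6 1, 3 or 4 the log2 fold change of Il6st was −0.18, −0.17 and −0.18, and its edgeR p before adjustment was no longer below 0.05 (adjusted p = 0.433, 0.489 and 0.412). Without CTRL 3 the fold changes were −0.40 for Il6ra and −0.16 for Il6st.

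RefSeq promoter windows of GRCm38.p6, which span 250 bases before the transcription start and 50 bases after it, were matched for 9 of the 10 members, 16 windows in all. The bases before the start are shown for Il6ra and Il6st, the members with an unadjusted edgeR p below 0.05. They are also shown for Socs3, the feedback inhibitor that STAT3 is known to induce. Sequences read 5′ to 3′ on the strand of the gene. Matches to the STAT motif TTCNNNGAA and the GC box GGGCGG on either strand are in capitals.
Il6ra, chr3:89913197-89913446, minus strand: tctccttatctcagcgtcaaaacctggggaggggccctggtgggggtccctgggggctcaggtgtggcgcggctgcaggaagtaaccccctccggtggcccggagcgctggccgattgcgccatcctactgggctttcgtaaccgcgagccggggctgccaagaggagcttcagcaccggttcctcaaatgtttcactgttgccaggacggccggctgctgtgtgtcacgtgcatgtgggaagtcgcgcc
Il6st, chr13:112463820-112464069, plus strand: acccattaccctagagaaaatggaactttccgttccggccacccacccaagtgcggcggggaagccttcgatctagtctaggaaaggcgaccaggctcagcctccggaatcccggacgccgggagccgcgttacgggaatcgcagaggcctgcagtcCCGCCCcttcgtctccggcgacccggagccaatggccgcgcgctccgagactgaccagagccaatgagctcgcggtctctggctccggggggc
Socs3, chr11:117969367-117969616, minus strand: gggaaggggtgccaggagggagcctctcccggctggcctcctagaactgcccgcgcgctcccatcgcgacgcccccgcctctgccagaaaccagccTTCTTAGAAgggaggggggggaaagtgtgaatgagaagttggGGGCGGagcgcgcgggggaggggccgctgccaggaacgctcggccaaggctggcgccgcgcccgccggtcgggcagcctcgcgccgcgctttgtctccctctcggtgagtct

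The STAT motif stood in 0 of the 16 windows of members and in 8.3% of all 32851 windows. Socs3 held 1 match, which began at position −154 from the start. The GC box stood in 10 of the 16 member windows and in 35.7% of all windows. Il6ra had no match to either motif, and Il6st had 1 GC box among the bases shown, which were 65.2% and 66.0% G or C. A match says only that these letters stand in the window, and some windows of the same gene overlap.

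Lifr, Osmr, Cntfr and Il11ra1 are the other receptor chains, and none of them differed between the groups beyond the spread between mice. Lifr (chromosome 15, 7090614 to 7197489), which encodes the LIF receptor, averaged 6.19 ± 0.14 log2 CPM over the CTRL mice (SD, n = 7) and 6.14 ± 0.16 over the treated mice (SD, n = 5). It differed by −0.08 on the log2 scale, with a 95% interval of −0.27 to 0.11 (edgeR, adjusted p = 0.763). Cntfr (chromosome 4, 41657498 to 41697089), the binding chain for ciliary neurotrophic factor, ranged from 6.43 to 6.81 log2 CPM in CTRL and was 6.84, 6.51, 6.68, 6.56 and 6.64 in the 5 treated mice. The fitted log2 change was −0.07, with an interval of −0.24 to 0.10. For Lifr and Cntfr the intervals leave room for only modest differences in either direction.

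Osmr (chromosome 15, 6813577 to 6874969), the oncostatin M receptor chain, varied more than the other receptors. CTRL mice ranged from 3.35 to 5.08 log2 CPM with a median of 3.94, and DPAn-6 mice had 3.87, 4.19, 3.53, 3.68 and 3.84. The highest value was that of CTRL 3, and all treated mice lay within the CTRL range. The log2 fold change was −0.28 (standard error 0.25, edgeR adjusted p = 0.691), and without CTRL 3 it was −0.0027. That library therefore decides the value.

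Il11ra1 (chromosome 4, 41699989 to 41769474), which encodes the binding chain for interleukin-11, averaged 3.47 ± 0.23 log2 CPM over CTRL (SD, n = 7) and 3.53 ± 0.15 over treated mice (SD, n = 5). The fitted log2 change was 0.03 with an interval of −0.21 to 0.26 (edgeR). Its direction turned to −0.04 without CTRL 3 and to −0.02 without DPAn-6 1. Of the 50-base words in its transcripts, 46.3% also stand in transcripts of its near-identical copies Gm13305 and Il11ra2, which had 0 counts in every mouse. Reads from those stretches could have been lost in the counting, and the Il11ra1 level is uncertain for that reason.

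The ligands among the members had few counts in cortex. Lif (chromosome 11, 4257557 to 4272514), leukaemia inhibitory factor, had 8 to 32 counts in CTRL and 12 to 32 in DPAn-6, with −0.01 ± 0.76 log2 CPM (SD, n = 7) and −0.07 ± 0.38 (SD, n = 5). Its 95% interval of −0.89 to 0.54 on the log2 scale means that a sizeable difference in either direction was not detectable at this depth. Clcf1 (chromosome 19, 4214238 to 4223490), a ligand of the Cntfr complex, had 22 to 40 counts in CTRL and 24 to 47 in DPAn-6. The change was 0.10 on the log2 scale with an interval of −0.37 to 0.57 (edgeR, adjusted p = 0.888).

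Cntf (chromosome 19, 12763660 to 12765632), ciliary neurotrophic factor, had 0 to 4 counts in CTRL and 0 to 8 in DPAn-6, and the groups overlapped (exact permutation p = 0.413). The counts of 0 in CTRL 4 and DPAn-6 3 allow up to 3 counts, or 0.172 and 0.151 CPM. Of the exonic bases of Cntf 78.9% also belong to Zfp91 on the same strand, which had 2437 to 4101 counts, and reads in such shared stretches are not assigned to either gene by STAR's gene counting. The low Cntf counts are therefore no measure of its full level. Of the ligands outside the members, Il6 had 0 to 4 counts in CTRL and 0 to 1 in DPAn-6, and Il11 had 1 to 10 and 2 to 9, and neither was tested by edgeR. Osm, which encodes oncostatin M, had 5 to 16 and 5 to 18 counts, with a log2 fold change of −0.19 (standard error 0.31, edgeR adjusted p = 0.843).

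Stat3 (ENSMUSG00000004040; chromosome 11, 100885098 to 100939540) averaged 6.39 ± 0.09 log2 CPM over CTRL (SD, n = 7) and 6.36 ± 0.12 over treated mice (SD, n = 5). CTRL ranged from 6.29 to 6.55, and DPAn-6 mice 1 to 5 had 6.40, 6.48, 6.24, 6.22 and 6.47. DPAn-6 3 and 4, the 2 treated mice aged 12 months, lay below every CTRL mouse, and the other 3 lay within the CTRL range. The fitted log2 change was −0.05 with an interval of −0.20 to 0.10 (edgeR adjusted p = 0.803). Among 12-month mice, 2 against 2, it was −0.24 (edgeR adjusted p = 0.121), and among 14-month mice 0.06 (edgeR adjusted p = 0.845). The interaction had an unadjusted p of 0.046 and an adjusted p of 0.905 in edgeR.

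Levels were compared between genes per length, as RPKM, here the counts per kilobase of merged exons scaled to the library total. Cntfr was the highest, at 36.8 ± 3.24 (SD over the 12 mice), followed by Il6st at 12.6 ± 1.21, Stat3 at 8.76 ± 0.60 and Lifr at 6.72 ± 0.65. Each of these was above the next in 12 of 12 mice, and Lifr was likewise above Il11ra1, at 2.54 ± 0.31. Il11ra1 was above Il6ra, at 1.52 ± 0.30, in 11 of 12 mice, and Il6ra was above Osmr, at 1.31 ± 0.51, in 10 of 12. These neighbours therefore overlapped within the spread between mice. Osmr was above Clcf1, at 0.487 ± 0.127, and Clcf1 above Lif, at 0.236 ± 0.101, in 12 of 12 mice. Cntf was left out of this order, since most of its exonic bases are shared with Zfp91, and the place of Il11ra1 is uncertain because of its copies. The shared chain Il6st was thus measured at a higher level per length than the chain Il6ra that binds IL-6 itself, 13.2 beside 1.69 in CTRL and 11.7 beside 1.28 in DPAn-6 mice.

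**Figure D3:**
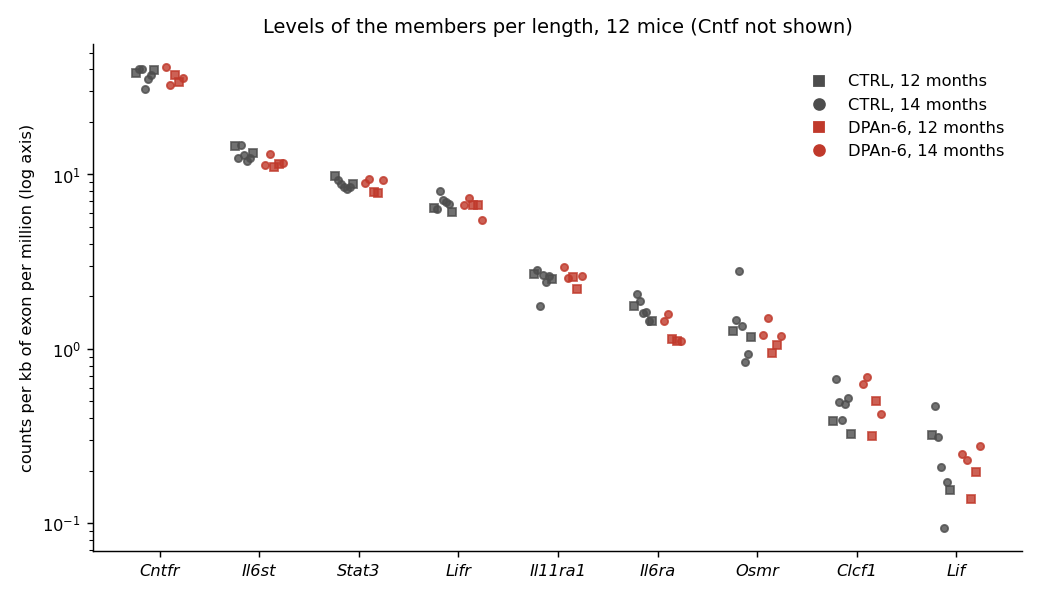
RPKM, the counts per kilobase of exon scaled to the library total, are plotted on a log axis for each member but Cntf and each mouse, in order of the mean over 12 mice, with CTRL in grey, DPAn-6 in red, squares for 12 months and circles for 14 months. The order runs from Cntfr at 36.8 to Lif at 0.236, and the CTRL and DPAn-6 points of each gene overlap.

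The pathway downstream of the receptors was described from 4 lists, of which 0 genes had an adjusted p below 0.05 in edgeR, 0 in limma-voom and 1, Grb2, in DESeq2, which called 4.44% of all genes. Among kinases, STATs and adaptors, 11 of 11 genes were tested, 7 lower and 4 higher, with a median log2 fold change of −0.06. Grb2, an adaptor that links receptors to the Ras pathway, was the 1 gene of the 4 lists with an unadjusted p below 0.05. Of all genes tested 14.5% were below that threshold in edgeR. Grb2 averaged 6.80 ± 0.13 log2 CPM over CTRL (SD, n = 7) and 7.02 ± 0.05 over treated mice (SD, n = 5). Every treated mouse lay above every CTRL mouse (exact permutation p = 0.0025). Groups without overlap were found for 3.22% of all genes, and an exact permutation p below 0.05 for 15.8%. Grb2 differed by 0.20 on the log2 scale in edgeR (adjusted p = 0.149). The next in that list were Shc1, another adaptor, at −0.22 (edgeR adjusted p = 0.440) and Jak1, a kinase bound to gp130, at 0.09 (edgeR adjusted p = 0.573). For Jak1 the exact permutation test gave p = 0.0164, from means of 7.70 ± 0.10 and 7.81 ± 0.02 log2 CPM.

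Inhibitors and sheddases, the enzymes that cut receptors from the cell surface, had 10 of 10 genes tested, 5 lower and 5 higher, with a median of −0.01. Ptpn6, a phosphatase of blood and microglial cells, had −0.30 (edgeR adjusted p = 0.382), the sheddase Adam17 had −0.14 (edgeR adjusted p = 0.639) and the phosphatase Ptpn2 had −0.10 (edgeR adjusted p = 0.788). Socs3 averaged 2.29 ± 0.33 log2 CPM in CTRL and 2.37 ± 0.26 in treated mice, and differed by 0.05 on the log2 scale, with an interval of −0.28 to 0.38 (edgeR). Of 20 known STAT3 target genes 18 were tested, 7 lower and 11 higher, with a median of 0.06. Serpina3n, an acute-phase gene of reactive astrocytes, had 0.41 (standard error 0.19, edgeR adjusted p = 0.345), Fos had 0.39 (edgeR adjusted p = 0.431) and Cebpd had 0.21 (edgeR adjusted p = 0.555). Gfap had 9.99 ± 0.34 and 10.1 ± 0.48 log2 CPM and a log2 fold change of 0.09 (edgeR adjusted p = 0.877). Among the other ligands and receptors of the family, 4 of 11 genes were tested, 3 lower and 1 higher, with Ctf1, a cytokine that signals through the LIF receptor, at 0.18 (edgeR adjusted p = 0.782).

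**Figure D4:**
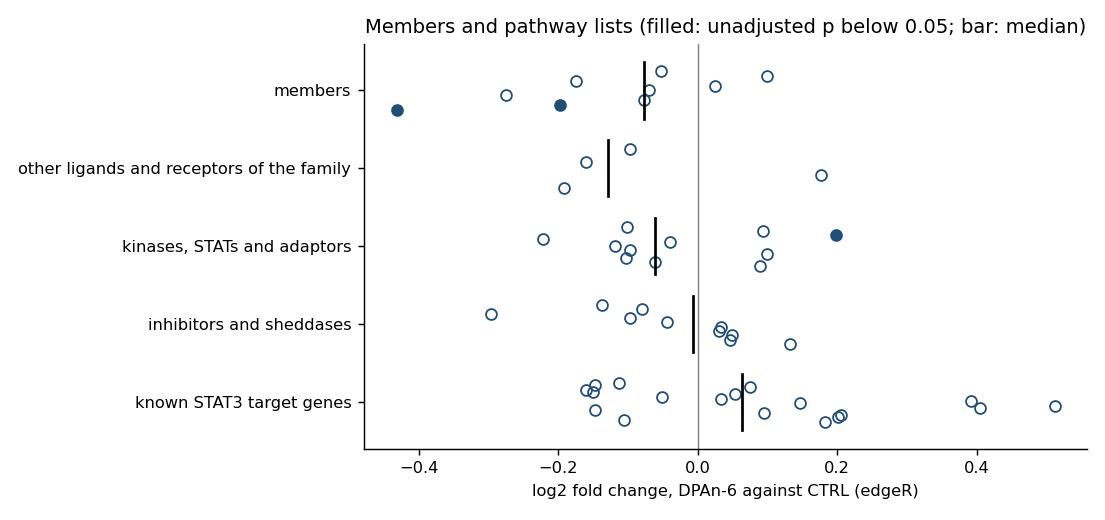
Log2 fold changes of DPAn-6 against CTRL are plotted for the 9 members tested and for the tested genes of the 4 pathway lists, 1 point per gene, with filled points for an unadjusted edgeR p below 0.05 and a bar at each median. The filled points are Il6ra and Il6st among the members and Grb2 among the kinases, STATs and adaptors, and the medians lie between −0.13 and 0.06.

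Members were then set against the mean log2 CPM of cell type marker lists over the 12 mice, with both measures centred within each group so that the group difference did not enter. In 108 relations of 9 members with 12 lists, 15 had a permutation p below 0.05 and 2 had an adjusted p below 0.05. Both were those of Osmr. With the astrocyte list, Pearson's r was 0.89 (permutation p = 0.00040, adjusted p = 0.0211). Spearman's rho was 0.83 (permutation p = 0.0039). Leaving out CTRL 3 and DPAn-6 3, which lay farthest from the list's median, brought r to 0.80. With the inhibitory neuron list r was −0.89 (permutation p = 0.00040, adjusted p = 0.0211). Its rho was −0.86 (permutation p = 0.0010), and r was −0.76 without the same 2 mice. Among 14-month mice alone the r values were 0.96 and −0.97, and the 4 mice of 12 months were too few for a value. The 2 calls did not hold throughout: 0 of the 108 relations passed the adjusted threshold by Spearman's rho, and 0 passed by Pearson's r without CTRL 3, without CTRL 6, without DPAn-6 2, without DPAn-6 3 or without both CTRL 2 and CTRL 5. Without CTRL 5 alone 1 passed, and without DPAn-6 1 there were 4.

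Il6st had r = 0.75 with the astrocyte list (permutation p = 0.0100, adjusted p = 0.180). Its rho was 0.73 (permutation p = 0.0156), and r was 0.56 without CTRL 3 and DPAn-6 3. Il6ra had r = −0.67 with the inhibitory neuron list (permutation p = 0.0166, adjusted p = 0.186). Its rho was −0.67 (permutation p = 0.0246), and without CTRL 3 and DPAn-6 3 r was −0.83. Stat3 had r = 0.72 with the microglia list (permutation p = 0.0054, adjusted p = 0.116). Here rho was 0.72 (permutation p = 0.0071), and r fell to 0.47 without CTRL 1 and DPAn-6 3. None of these relations passed the adjustment. With the microglia list Il6ra had r = 0.38 and Il6st r = 0.33 within the groups (permutation p = 0.247 and 0.308). Without CTRL 1 and DPAn-6 3 these r values were 0.30 and −0.09, and without CTRL 3 they were 0.54 and 0.71. Both members and the list were lower in DPAn-6 mice than in CTRL. With the meningeal fibroblast list r was 0.56 for Il6ra and 0.25 for Il6st (permutation p = 0.0979 and 0.423). The part of the lower microglial, border macrophage, meningeal fibroblast, choroid plexus and astrocyte marker levels in the lower Il6ra and Il6st was not tested. Nor was that of the lower mural cell marker levels or of the higher inhibitory neuron and oligodendrocyte marker levels.

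**Figure D5:**
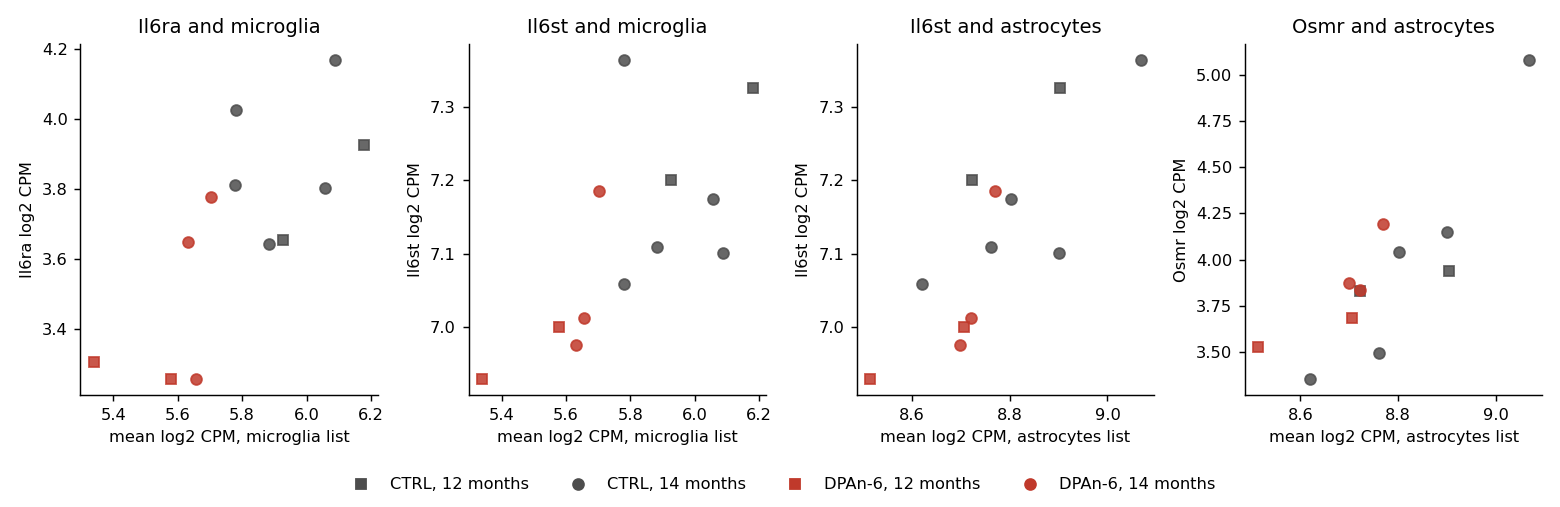
Log2 CPM of Il6ra, Il6st and Osmr is plotted against the mean log2 CPM of the microglia or astrocyte marker list, 1 point per mouse, with CTRL in grey, DPAn-6 in red, squares for 12 months and circles for 14 months. The microglia mean is 5.34 to 5.70 in the DPAn-6 mice and 5.78 to 6.18 in the CTRL mice, and Osmr and the astrocyte mean are both highest in CTRL 3.

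Among the 36 pairs of members, 6 had a permutation p below 0.05 and 0 an adjusted p below 0.05. The smallest p was that of Il6st and Osmr, with r = 0.75 (permutation p = 0.0058, adjusted p = 0.113). That pair had a rho of 0.62 (permutation p = 0.0523) and an r of 0.67 without CTRL 1 and CTRL 3. Lif and Stat3 had r = 0.68 (permutation p = 0.0063, adjusted p = 0.113). For them rho was 0.76 (permutation p = 0.0029), and leaving out CTRL 2 and CTRL 5 gave r = 0.69. Il6ra and Il6st had r = 0.41 (permutation p = 0.196, adjusted p = 0.442). For this pair rho was 0.18 (permutation p = 0.595), and leaving out DPAn-6 4 and DPAn-6 5 gave r = 0.44.

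The genes whose centred log2 CPM was most like that of a member over the 12 mice were listed as a description, with no test. For Il6ra they were Nemp1, Adap2, Galnt15, Mertk and Glra1, with r from 0.88 to 0.91. Their log2 fold changes in edgeR were −0.24, −0.33, −0.19, −0.40 and −0.33, in that order. Mertk is a receptor for the uptake of dying cells. For Il6st they were Dock10, Lcp1, Foxo1, C3ar1 and Pros1, with r from 0.90 to 0.96. Their log2 fold changes were −0.0061, −0.36, 0.018, −0.41 and −0.25, in that order. For Stat3 they were Pygl, Gfap, Spi1, Smtnl2 and Slc15a3, with r from 0.92 to 0.95. These had log2 fold changes of −0.016, 0.09, −0.20, 0.22 and −0.031, in that order. Glra1 had 7 to 19 counts per mouse and Smtnl2 had 14 to 43, so that their values rest on few reads.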

How the data were processed

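RNA-Seq was measured in cortex of 12 E4FAD mice, 7 CTRL and 5 DPAn-6, with 1 poly(A)-selected library each. The authors aligned the reads with STAR 2.5.3a to GRCm38 and deposited 1 table of raw read counts, not normalized. The strand setting of the counting is not given in the sources used here. Gene models came from GENCODE M21, where 50339 of the 50563 identifiers were found.

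Log2 CPM was computed here with a pseudocount of 0.5. Groups were compared with edgeR 4.0.16 in R 4.3.3 (TMM, filterByExpr, glmQLFit, glmQLFTest) with no covariate, with Benjamini-Hochberg adjustment over all genes tested. A two-sided exact permutation test of the group means of log2 CPM was run for single genes. Correlations of group-centred values used 100000 permutations within groups, two-sided, in Python 3.11.15. The tests were tested on simulated data, in which the group differences were larger than those of Il6ra and Il6st. The paper's methods name limma-voom, which was run as an alternative with limma 3.58.1, beside DESeq2 1.42.0.

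The members and lists were chosen with earlier results of these data known. All 10 members are named, and from each pathway list the genes past the adjusted threshold or otherwise the 3 with the smallest p, plus Il6, Il11, Osm, Socs3, Jak1 and Gfap, and the 5 genes most like Il6ra, Il6st and Stat3. A gene that this rule names is not reported here. The replicate numbers were checked for pairing and did not pair the mice. Counts limit precision, and the interval of each fold change gives the uncertainty of the fitted difference between groups, not the range of single mice.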

Additional observations from a re-analysis of the deposited data

Results flagged for a closer look

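In 20 groups of mice, 1 for each member and treatment, the lowest or highest mouse was examined for its gap to the next, where chance alone flags about 1 group in 20, and 2 stood out. Il11ra1 in CTRL 3 was at 2.99 log2 CPM, with the nearest other CTRL mouse at 3.44, a gap of 0.664 of the range of the group beside a critical value of 0.568. CTRL 3 was also the mouse with the highest Osmr. Cntf in CTRL 4, which had a count of 0, was at −5.13 log2 CPM, with the nearest at −2.89, a gap of 0.671 of the range. At such counts the gap rests on 2 reads.

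The effect of treatment on Stat3 differed between the ages with an unadjusted interaction p of 0.046 in edgeR (adjusted p = 0.905). The change among 14-month mice was higher than that among 12-month mice by 0.30 on the log2 scale. Among 9 members this was the 1 with an unadjusted interaction p below 0.05. The share of all genes at that unadjusted threshold was not counted. After adjustment, 1 gene of all genes tested had an interaction p below 0.05.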

How the results depend on the processing

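Il6ra stayed lower in all 26 alternatives, between −0.52 and −0.30 on the log2 scale, with an edgeR, limma or DESeq2 p below 0.05 in 24, and its adjusted p was between 0.0309 (DESeq2) and 0.917 (Ttr as covariate). Il6st stayed lower in all 26, between −0.31 and −0.13, with a p below 0.05 in 21 and an adjusted p between 0.0494 (12-month mice) and 0.757 (14-month mice). The 12-month comparison has 2 mice against 2.

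The count of genes past the adjusted threshold moved most: 696 with DESeq2, 1267 with limma-voom and sample weights, 17 with Ttr as covariate, 9 in 14-month and 709 in 12-month mice, 85 without CTRL 2 and CTRL 5 (added after the data were seen), and 64 (without DPAn-6 3) to 953 (without CTRL 3) with 1 mouse left out. Members past it were 1 with DESeq2 (Il6ra) and 1 in 12-month mice (Il6st). Members with an unadjusted p below 0.05 were 1 with Ttr as covariate, 0 in 14-month mice, and 1 to 2 with 1 mouse left out. By the exact permutation test there were 0 in 14-month mice and 1 to 2 with 1 mouse left out. The shares of all genes at these unadjusted thresholds were counted only for the main comparison. Pathway genes past the adjusted threshold were 1 with DESeq2 (Grb2), 2 with limma-voom and sample weights (Grb2 and Serpina3n), 6 in 12-month mice, and 0 to 1 with 1 mouse left out. Correlations past it were 0 by Spearman's rho, 0 without CTRL 2 and CTRL 5, and 0 to 4 with 1 mouse left out. The cause of these moves was not tested.

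The same-numbered mice did not deviate together (r from −0.12 to 0.22). With the replicate block on 10 mice, 69 genes passed the adjusted threshold, Il6ra was at −0.52 and Il6st at −0.21 (edgeR adjusted p = 0.104 and 0.419), and 1 member, Il6ra, had an unadjusted p below 0.05.

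Members that were not called changed sign at small values. With sample weights Osmr was at 0.082, Il11ra1 at −0.011 and Lif at 0.15. In 12-month mice Lifr was at 0.10 and Il11ra1 at −0.12, and in 14-month mice Lif was at 0.012 and Stat3 at 0.064. Lif was at 0.19 with Ttr as covariate. With 1 mouse left out, Il11ra1 ranged from −0.035 (without CTRL 3) to 0.087, Lif from −0.32 to 0.054 (without CTRL 2) and Clcf1 from −0.025 (without DPAn-6 2) to 0.24. At 8 to 32 counts per mouse, Lif had the widest interval of the 9 members tested.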

Other observations

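Timp1, a metalloproteinase inhibitor gene on the list of known STAT3 targets, was singled out after its values were seen. It had 4 to 8 counts in CTRL and 9 to 22 in DPAn-6 and did not pass the filter on low counts. In log2 CPM, which takes the library totals into account, the groups overlapped. The two-sided exact permutation test of log2 CPM gave p = 0.0025, and with no filter edgeR put Timp1 higher by 1.01 on the log2 scale (standard error 0.32, adjusted p = 0.193).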
